A study of Hydrangea macrophylla with 27 samples.

Results

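Expression of the CBL-interacting protein kinases CIPK6, CIPK7, CIPK12 and CIPK18 was followed in whole stems of the hortensia Hydrangea macrophylla 'Wudu' after mechanical bending. The members are the assembled transcript clusters whose best Swiss-Prot match carries exactly 1 of these 4 gene names and whose expected counts add up to at least 100 over all libraries. The rule found 7 of 142016 clusters, which were 2 for CIPK6, 1 for CIPK7, 2 for CIPK12 and 2 for CIPK18. The members were chosen by gene name and selected on their total count, and the names were proposed with earlier results of these data known, including differences under bending, so the levels below are descriptions and a passed test gives no independent support. The 27 libraries of wild-type plants form 9 groups of 3, which are stems collected 1, 3, 24 and 72 h after bending, unbent stems collected at the same 4 times, and stems taken 15 min before bending. Bending was given on 1 morning as 12 passes of a plastic curtain that tilted the stem by 30° for about 30 s, and all plants were grown from micro-cuttings of 1 cultivar in a 16 h photoperiod. Each library holds the poly(A) RNA of a whole stem sample, so fewer cells of a type and less RNA per cell cannot be told apart.

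CIPKs are plant protein kinases that belong to the SnRK3 branch of the SNF1-related kinase family. They act with calcineurin B-like proteins (CBLs), small calcium sensors that bind the NAF motif in the regulatory part of the kinase, release the kinase from self-inhibition and bring it to the plasma membrane or the vacuolar membrane. Calcium signals are among the early responses of plant cells to touch and bending, and the known substrates of CBL-CIPK pairs are mainly ion channels and transporters. In Arabidopsis, CIPK6 works with CBL4 to bring the potassium channel AKT2 to the plasma membrane. CIPK12 works with CBL2 and CBL3 at the vacuolar membrane during pollen tube growth, and CIPK7 is a partner of CBL1 that has been studied in the cold response.

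All 7 clusters held both a protein kinase domain and a NAF domain in the deposited Pfam annotation, which the rule had not used. Of all clusters, 18 held both domains, and each of these had a CIPK as its best match. The 7 clusters were 1594 to 3329 bases long (median 1978), against a median of 626 bases over all clusters. The best matches of the CIPK6, CIPK7 and CIPK12 clusters are Arabidopsis proteins, while those of both CIPK18 clusters are rice proteins, and the rice numbering of CIPKs is separate from the Arabidopsis one. Below, a cluster is named by its gene and the last number of its identifier, so that CIPK6-72818 stands for Cluster-9242.72818. Clusters with the same name may be gene copies or pieces of 1 gene and may share reads.

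Per length, the CIPK6 clusters stood far above the others. The median FPKM (fragments counted, scaled to cluster length and library size) over the 27 libraries was 154 for CIPK6-72818 and 98.7 for CIPK6-56073, which placed them above 98.9% and 98.3% of the 52918 clusters tested. CIPK7-39790 had a median of 11.8 FPKM, CIPK18-19398 of 11.5 FPKM and CIPK18-53371 of 7.38 FPKM. CIPK12-88771 and CIPK12-18092 were the lowest, with medians of 3.97 and 3.85 FPKM. The total expected count of a member ranged from 3595 for CIPK12-18092 to 126588 for CIPK6-72818, so none was near the minimum of 100, and a minimum of 50 or 500 gave the same number of clusters.

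Library totals were 14.4 to 23.1 M expected counts, and libraries of 1 group differed by more than sampling noise in every pair. Clusters matching ribosomal RNA took 2.69% to 8.45% of the counts, and clusters matching a ringspot virus took 2.32% to 6.88%. The 3 libraries with the largest ribosomal share were replicate 2 of the bent stems at 1 h, replicate 2 of the bent stems at 3 h and replicate 2 of the stems before bending. Cell type markers were matched by gene name in any species. A cluster was found for 9 of 10 xylem names, 4 of 5 phloem names and 3 of 6 epidermis names. For leaf mesophyll it was 3 of 3, and for meristem and cell cycle 2 of 6, CYCA3-1 and ANT. The names without a cluster were LAC4, APL, PDF2, KCS6, CER1, CYCB1-1, CYCB1-4, KNAT1 and STM. No marker gene with a cluster was at 0, which says nothing of the names without a cluster.

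The question of the study's main comparison was which transcripts differ between bent and unbent stems at each time. Within these kinases other members passed at 1 h than at 3 h: CIPK7-39790 and CIPK6-56073 were higher in bent stems at 1 h, and CIPK12-88771 was higher at 3 h. At 1 h, 2 of 7 members passed an adjusted p of 0.05 in edgeR's quasi-likelihood test, both higher, where 1.93% of all tested clusters passed (1.11% higher). At 3 h, 1 of 7 passed, higher, where 5.08% of all tested clusters passed (3.05% higher). The median log2 fold change over the 7 members was 0.05 at 1 h and 0.14 at 3 h, against 0.00 and 0.01 over all tested clusters. The plot of CPM by library shows these levels, where CPM is counts relative to library size, scaled between libraries by edgeR's TMM method.

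**Figure D1:**
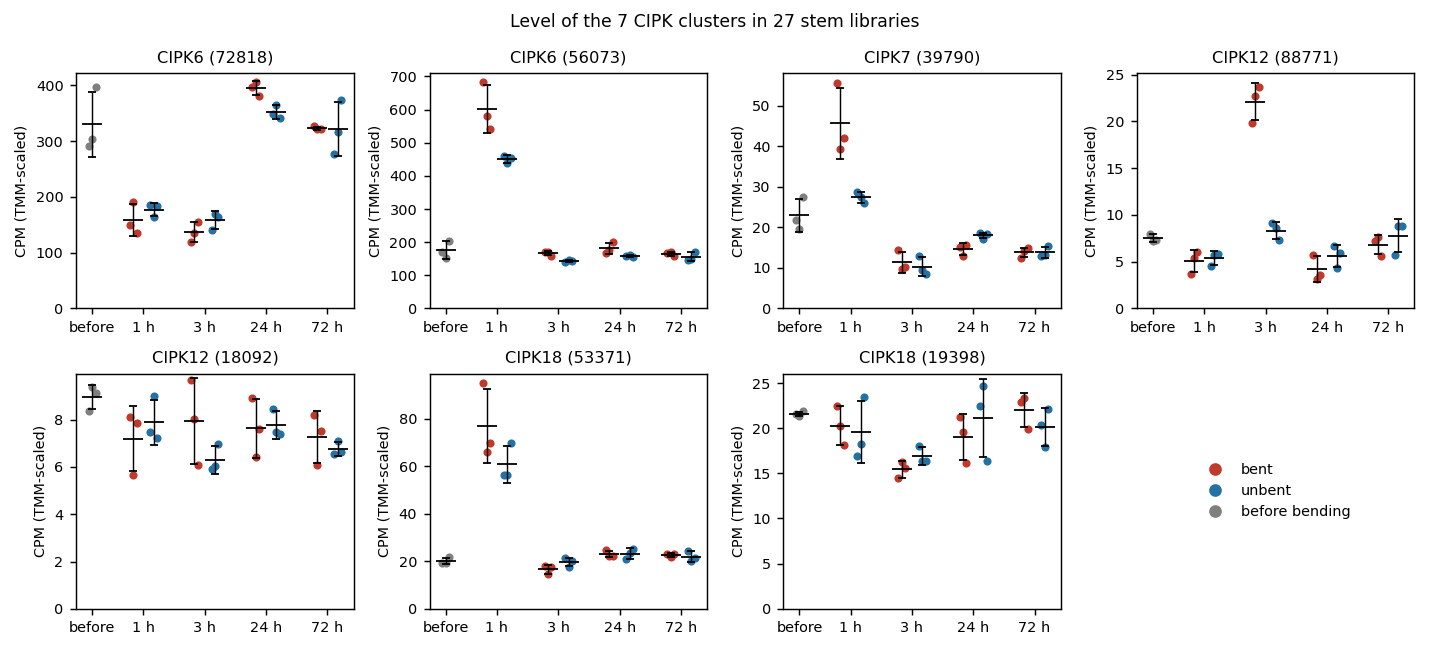
TMM-scaled CPM of the 7 CIPK clusters in all 27 libraries (points) with the mean and SD of 3 libraries (bars), for stems before bending (grey) and bent (red) and unbent (blue) stems at 4 times; each vertical axis starts at 0. CIPK6-56073, CIPK7-39790 and CIPK18-53371 have their highest levels at 1 h, CIPK12-88771 has its highest level in the bent stems at 3 h, and CIPK6-72818 is lowest at 1 and 3 h.

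CIPK7-39790 had 55.6, 39.4 and 42.0 CPM in bent stems at 1 h, against 28.8, 27.4 and 26.0 CPM in unbent stems. All 3 bent libraries lay above the 3 unbent ones, and the first bent library was the highest of all 27. The log2 fold change was 0.74 ± 0.14 (SE, adjusted p = 0.00202). With each library of the 2 groups left out in turn it stayed between 0.57 and 0.83, and the highest adjusted p was 0.0343. At 3 h the level averaged 11.4 ± 2.59 CPM in bent stems and 10.3 ± 2.30 CPM in unbent stems (SD, n = 3 each), and the libraries overlapped.

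CIPK6-56073 had 683, 581 and 540.4 CPM in bent stems at 1 h, against 459, 438 and 454 CPM in unbent stems. The groups did not overlap, and these 6 libraries were the 6 highest for this cluster. The log2 fold change was 0.42 ± 0.08 (adjusted p = 0.00211). On FPKM values in limma the difference kept its direction and missed the threshold, with an adjusted p of 0.0939 on log2(FPKM + 0.1). At 3 h it had 170.6, 170.6 and 159.7 CPM in bent stems and 139.5, 147.1 and 142.6 CPM in unbent stems, which did not overlap either, but the difference of 0.22 ± 0.08 did not pass (adjusted p = 0.120).

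The other CIPK6 cluster passed at neither time. CIPK6-72818 had 150.3, 190.3 and 136 CPM in bent stems at 1 h, against 185, 164 and 183 CPM in unbent stems, with a log2 fold change of -0.16 ± 0.13 (adjusted p = 0.785). At 3 h it had 119, 136 and 155 CPM in bent stems and 141, 170.2 and 165 CPM in unbent stems, with a log2 fold change of -0.22 ± 0.13 (adjusted p = 0.486). Bent and unbent libraries overlapped at both times.

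CIPK12-88771 had 19.9, 22.7 and 23.7 CPM in bent stems at 3 h, against 9.13, 8.55 and 7.30 CPM in unbent stems. Each bent library exceeded each of the other 24 libraries of the series. The log2 fold change was 1.41 ± 0.18 (adjusted p = 6.87e-07), or 2.66-fold, and it stayed between 1.32 and 1.48 with each library of the 2 groups left out in turn. At 1 h the same cluster had 3.71, 5.398 and 6.01 CPM in bent stems and 4.50, 5.76 and 5.87 CPM in unbent stems, and these overlapped (log2 fold change -0.09 ± 0.21, adjusted p = 0.948). The second CIPK12 cluster, CIPK12-18092, had 9.70, 8.03 and 6.07 CPM in bent stems at 3 h and 5.90, 6.05 and 6.99 CPM in unbent stems. Its groups overlapped, and its log2 fold change of 0.33 ± 0.17 did not pass (adjusted p = 0.365).

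CIPK18-53371 had 95.0, 66.1 and 69.9 CPM in bent stems at 1 h, against 56.4, 56.1 and 69.8 CPM in unbent stems. The groups overlapped through the third unbent library, and the log2 fold change of 0.34 ± 0.11 did not pass (adjusted p = 0.0959). Single libraries moved this value both ways. Without replicate 1 of the bent stems the log2 fold change was 0.16 ± 0.11 (adjusted p = 0.802). It passed without replicate 3 of the unbent stems (0.45 ± 0.12, adjusted p = 0.0310), without replicate 2 of the bent stems (0.44 ± 0.11, adjusted p = 0.0217) and without the 3 libraries richest in ribosomal RNA (0.44 ± 0.11, adjusted p = 0.0200). At 3 h it had 17.9, 14.5 and 17.5 CPM in bent stems and 21.4, 17.8 and 19.9 CPM in unbent stems, with a log2 fold change of -0.24 ± 0.12 (adjusted p = 0.288). CIPK18-19398 lay between 14.5 and 24.7 CPM over all 27 libraries, and differed by 0.05 ± 0.13 at 1 h (adjusted p = 0.956) and by -0.13 ± 0.13 at 3 h (adjusted p = 0.713). Its 3 bent libraries at 3 h lay below the 3 unbent ones without passing the test.

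By the separation of libraries alone, bent and unbent stems did not overlap for 2 of 7 members at 1 h, both higher, where 16.6% of all tested clusters did not overlap. At 3 h this held for 3 of 7 members, 2 higher and 1 lower, where the share over all tested clusters was 20.8%.

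At 24 and 72 h no member passed in edgeR, in DESeq2 or in limma-voom, where 0.0246% and 0% of all tested clusters passed in edgeR. The 24 h share is 13 clusters, a count that lay between 2 and 41 with 1 library left out and was 132 with no filter on low counts. At an unadjusted p under 0.05 there were 2 of 7 members at 24 h and 0 of 7 at 72 h, where 6.18% and 5.45% of all tested clusters were under it. At 24 h, 3 of 7 members did not overlap, against 12.5% of all tested clusters: CIPK6-72818 and CIPK6-56073 were higher in each bent library and CIPK7-39790 was lower. CIPK6-72818 had 397, 406 and 381 CPM in bent stems and 349.6, 366 and 342 CPM in unbent stems (log2 fold change 0.16 ± 0.13, adjusted p = 0.924). CIPK6-56073 had 168, 178 and 199.8 CPM in bent stems and 157, 162 and 156 CPM in unbent stems (0.20 ± 0.08, adjusted p = 0.695). CIPK7-39790 had 15.1, 13.0 and 15.7 CPM in bent stems and 18.5, 17.2 and 18.3 CPM in unbent stems (-0.30 ± 0.15, adjusted p = 0.807). At 72 h the libraries of all 7 members overlapped, against 10.5% of all tested clusters that did not.

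Whether the bending effect differed between times was tested directly. The F test over the 4 times passed for 2 of 7 members, CIPK12-88771 (adjusted p = 3.05e-05) and CIPK7-39790 (adjusted p = 0.0125), where 2.11% of all tested clusters passed. On FPKM values the CIPK7 call was lost (adjusted p = 0.161 on log2(FPKM + 0.1) and 0.128 on log2(FPKM + 1)). From 1 h to 3 h the bending effect on CIPK12-88771 grew by 1.499 ± 0.275 on the log2 scale (adjusted p = 0.00128), the only 1 of 7 members to pass, where 0.841% of all tested clusters passed (0.559% with a larger value at 3 h). The change of the effect was -0.59 ± 0.21 for CIPK7-39790 (adjusted p = 0.269) and -0.58 ± 0.16 for CIPK18-53371 (adjusted p = 0.0613), and -0.19 ± 0.11 for CIPK6-56073 (adjusted p = 0.662).

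**Figure D2:**
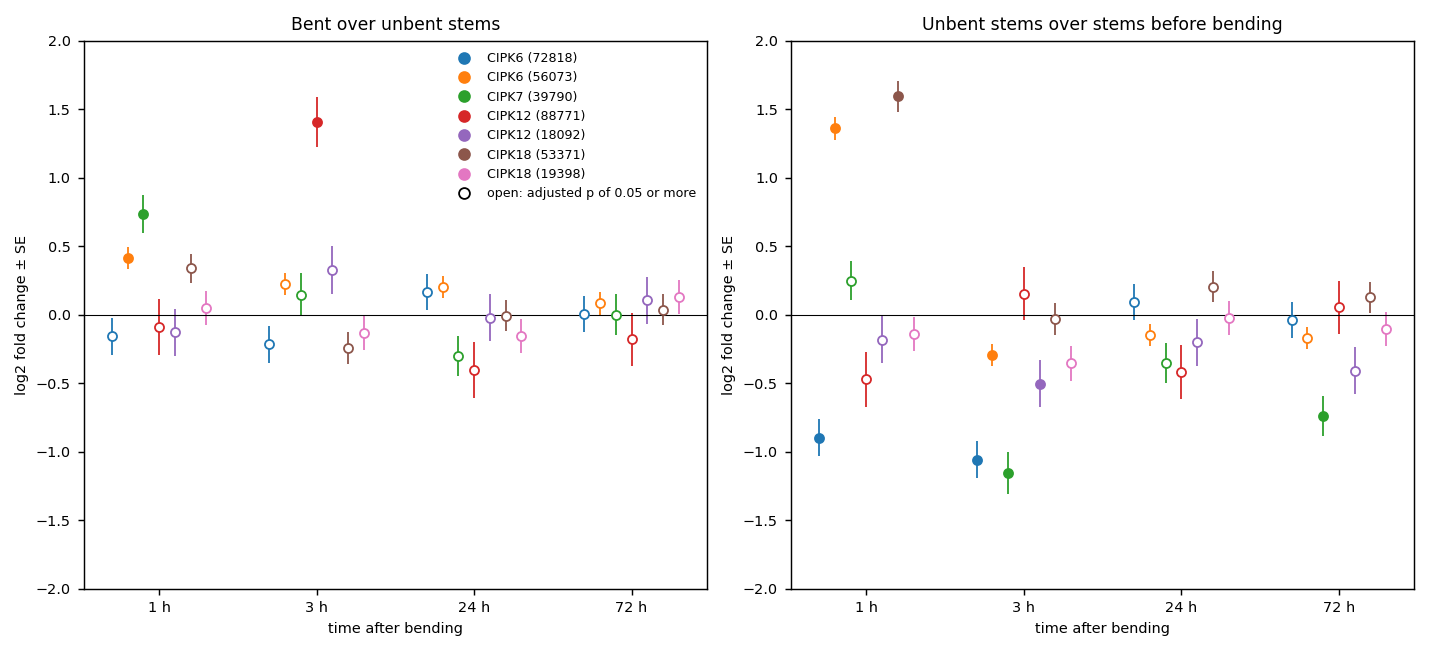
Log2 fold change with its SE for the 7 CIPK clusters, bent over unbent stems (left) and unbent stems over stems before bending (right), at 1, 3, 24 and 72 h; filled points passed an adjusted p of 0.05. The filled points on the left are CIPK6-56073 and CIPK7-39790 at 1 h and CIPK12-88771 at 3 h, and the largest changes on the right are those of CIPK6-56073 and CIPK18-53371 at 1 h.

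Some other measures also differed between bent and unbent stems at 1 or 3 h, and the shares of counts given here were not tested. The share of counts in ribosomal RNA at 1 h was 3.86%, 6.97% and 3.32% in bent stems and 3.22%, 2.69% and 3.03% in unbent stems, which did not overlap. At 3 h this share overlapped. The share in the ringspot virus at 3 h was 3.34%, 2.32% and 2.69% in bent stems and 3.74%, 5.82% and 3.99% in unbent stems, which did not overlap either, and at 1 h it overlapped. Without the 3 libraries richest in ribosomal RNA, the log2 fold change at 1 h was 0.83 for CIPK7-39790 (adjusted p = 0.000265) and 0.44 for CIPK6-56073 (adjusted p = 0.000871), and that of CIPK12-88771 at 3 h was 1.39 (adjusted p = 2.34e-05). This left replicates 1 and 3 of the bent stems at each of these times. At 1 h their ribosomal shares of 3.86% and 3.32% still lay above those of all unbent libraries, so this fit does not remove that shift. The summed FPKM of the leaf mesophyll markers, for which all 3 names had clusters, was 1983 to 2041 in bent stems and 2094 to 2548 in unbent stems at 1 h, and 1954 to 2219 in bent stems and 2474 to 2738 in unbent stems at 3 h. Of its 7 tested clusters, 1 passed lower at 1 h and 2 passed lower at 3 h, where 1.93% and 5.08% of all tested clusters passed. The list was mixed, with 3 of the 7 above a log2 fold change of 0 at 1 h and 2 at 3 h. RBCS Cluster-9242.48786 was higher in each bent library at 1 h without passing (0.24 ± 0.11, adjusted p = 0.481). The summed FPKM of the xylem markers (9 of 10 names with clusters), phloem (4 of 5) and epidermis (3 of 6) overlapped between bent and unbent stems at 1 and 3 h. Of 19 tested xylem clusters, 0 passed at 1 h in edgeR and in DESeq2, 1 passed in limma-voom and 3 had an unadjusted p under 0.05. At 3 h, 2 of the 19 passed in edgeR, both higher, and 3 passed in DESeq2, with a median log2 fold change of -0.15 over the 19. The summed FPKM of the meristem and cell cycle names (2 of 6, CYCA3-1 and ANT) overlapped at 1 h. At 3 h it was 326 to 347 in bent stems and 316 to 324 in unbent stems. Of the 7 tested clusters of this list, 0 passed at 3 h in edgeR and in DESeq2 and 1 passed in limma-voom. Their median log2 fold change at 3 h was -0.16, with 2 of the 7 above 0, so most did not follow the sum. The part of these shifts in the CIPK differences was not tested.

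Unbent stems also differed from the stems taken before bending. CIPK6-56073 and CIPK18-53371 were higher at 1 h, CIPK6-72818 was lower at 1 and 3 h, and CIPK7-39790 was lower at 3 and 72 h. Samples at 1 and 3 h were also taken at another clock time than those before bending, so time of day and time passed cannot be told apart. The 4 comparisons share the 3 libraries before bending, and each shares its unbent libraries with the bending comparison above. At 1 h, 3 of 7 members passed, 2 higher and 1 lower, where 10.3% of all tested clusters passed (6.46% higher and 3.85% lower). At 3 h, 4 of 7 passed, all lower, where 14.1% of all tested clusters passed (5.88% lower). At 24 h none passed in edgeR, in DESeq2 or in limma-voom, where 8.4% of all tested clusters did and 2 of 7 members had an unadjusted p under 0.05, and at 72 h 1 passed, lower, where 10.3% did (4.76% lower).

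The pair of CIPK6 clusters went opposite ways at 1 h. CIPK6-56073 had 170.1, 152 and 204 CPM before bending, and in unbent stems it averaged 451 ± 11.1 CPM at 1 h, 143 ± 3.79 CPM at 3 h, 158 ± 2.88 CPM at 24 h and 156 ± 13.4 CPM at 72 h (SD, n = 3). It rose at 1 h by 1.36 ± 0.08 on the log2 scale (adjusted p = 4.30e-15) and was lower than before bending at 3 h by a log2 fold change of -0.29 ± 0.08 (adjusted p = 0.0102). The 3 h call was lost without replicate 1 of the unbent stems (adjusted p = 0.0516) or replicate 3 of the stems before bending (adjusted p = 0.170), and in limma-voom (adjusted p = 0.123).

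CIPK6-72818 had 291, 303 and 397 CPM before bending, and in unbent stems it averaged 177 ± 11.8 CPM at 1 h, 159 ± 15.5 CPM at 3 h, 352 ± 11.9 CPM at 24 h and 322 ± 48.4 CPM at 72 h. It fell at 1 h (log2 fold change -0.90 ± 0.13, adjusted p = 7.54e-05) and at 3 h (-1.06 ± 0.13, adjusted p = 1.16e-05), with every unbent library at these times below every library before bending. At 24 and 72 h it overlapped the level before bending.

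CIPK18-53371 had 56.4, 56.1 and 69.8 CPM in unbent stems at 1 h, against 19.4, 19.3 and 21.7 CPM before bending. This was the largest change among the 7 members in unbent stems, with a log2 fold change of 1.59 ± 0.11 (adjusted p = 7.45e-15), and at 3 h the level in unbent stems was 19.7 ± 1.82 CPM (SD, n = 3), which overlapped that before bending. CIPK7-39790 in unbent stems at 1 h overlapped its level before bending (0.25 ± 0.14, adjusted p = 0.356). It fell to 12.9, 9.54 and 8.54 CPM in unbent stems at 3 h, against 21.8, 19.7 and 27.5 CPM before bending, with a log2 fold change of -1.16 ± 0.15 (adjusted p = 6.22e-07), and was lower at 72 h by a log2 fold change of -0.74 ± 0.15 (adjusted p = 0.000808).

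The remaining clusters were of CIPK12 and CIPK18. CIPK12-18092 was lower at 3 h by a log2 fold change of -0.50 ± 0.17 (adjusted p = 0.0416), a call lost in 5 of the 6 fits that left out 1 library, where the adjusted p reached 0.139. CIPK12-88771 passed at no single time in unbent stems, and its levels there lay between 4.28 and 9.13 CPM. CIPK18-19398 had a log2 fold change of -0.35 ± 0.13 at 3 h (adjusted p = 0.0522). The F test over the 5 times in unbent stems passed for 5 of 7 members, where 28.8% of all tested clusters passed, and did not pass for CIPK12-18092 (adjusted p = 0.120) and CIPK18-19398 (adjusted p = 0.156). For CIPK12-88771 that adjusted p was 0.0226, and it was 0.107 on log2(FPKM + 0.1).

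In the same libraries, the summed FPKM of the leaf mesophyll markers was 2573 to 3031 before bending, and in unbent stems 2094 to 2548 at 1 h, 2474 to 2738 at 3 h, 3972 to 4377 at 24 h and 3362 to 3558 at 72 h. That of the meristem and cell cycle names, CYCA3-1 and ANT, was 236 to 252 before bending. In unbent stems it was 265 to 287 at 1 h, 316 to 324 at 3 h, 231 to 243 at 24 h and 269 to 291 at 72 h. It lay apart from the level before bending at 1, 3 and 72 h. Of the 7 tested clusters of this list, 2 had a log2 fold change above 0 at 1 h, 3 at 3 h and 7 at 72 h. Of these 7, 1 passed at 1 h, 1 at 3 h and 3 at 72 h, all higher. Over all tested clusters, 10.3% passed at 1 h, 14.1% at 3 h and 10.3% at 72 h. The summed FPKM of the epidermis markers was 40.9 to 46.7 before bending and in unbent stems 32.4 to 48.1 at 1 h, 34.4 to 35.9 at 3 h, 24.2 to 49.3 at 24 h and 29.6 to 43.6 at 72 h, apart from the level before bending at 3 h. The sums of the xylem and phloem markers overlapped their level before bending at all 4 times. Of 19 tested xylem clusters, 3 passed at 1 h (3 higher), 3 at 3 h (2 higher), 3 at 24 h (2 higher) and 4 at 72 h (1 higher). Over all tested clusters, 10.3%, 14.1%, 8.4% and 10.3% passed at these times. Of 8 tested phloem clusters, 1 passed in edgeR at 3 h, lower, and 0 at the other times. The part of these marker levels in the levels of the CIPK clusters was not tested.

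In the order of the 9 group means, bent stems at 1 h were highest for CIPK6-56073, CIPK7-39790 and CIPK18-53371. For the first 2 of these the next group was the unbent stems at 1 h, with no overlap, and for CIPK18-53371 these neighbours overlapped. CIPK12-88771 was highest in bent stems at 3 h with a gap to unbent stems at 3 h, and below that gap each group overlapped its neighbour in the order. CIPK6-72818 fell into a higher set of 5 groups, with means of 322 to 395 CPM, and a lower set of the 4 groups at 1 and 3 h, with means of 136 to 177 CPM, and no library of 1 set reached the other. The highest group mean was 5.28 times the lowest for CIPK12-88771, 4.62 times for CIPK18-53371, 4.42 times for CIPK7-39790, 4.204 times for CIPK6-56073 and 2.89 times for CIPK6-72818. It was 1.42 times the lowest for CIPK12-18092, whose 9 groups each overlapped the next, and 1.43 times for CIPK18-19398, where only the lowest group, the bent stems at 3 h, lay apart from the next.

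Within each library, the ratio of the FPKM of clusters with the same name is free of the scaling between libraries. For CIPK6 and for CIPK18, the cluster with the higher FPKM at 1 h was the one with the lower FPKM before bending. The ratio of CIPK6-56073 to CIPK6-72818 was 0.648, 0.555 and 0.571 before bending. At 1 h it was 5.04, 3.39 and 4.42 in bent stems and 2.76, 2.97 and 2.74 in unbent stems, so CIPK6-56073 was the more abundant cluster in all 6 libraries and more so in the bent ones. At 3 h the ratio was 1.59, 1.39 and 1.15 in bent stems and 1.097, 0.958 and 0.960 in unbent stems, and at 24 and 72 h its group means were 0.498 to 0.565.

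The ratio of CIPK12-88771 to CIPK12-18092 at 3 h was 2.37, 3.27 and 4.51 in bent stems and 1.79, 1.64 and 1.21 in unbent stems, against 0.970 ± 0.114 before bending (SD, n = 3). The ratio of CIPK18-53371 to CIPK18-19398 at 1 h was 2.36, 1.82 and 2.15 in bent stems and 1.86, 1.72 and 1.66 in unbent stems, against 0.503, 0.503 and 0.555 before bending. For CIPK6 at 1 and 3 h and for CIPK12 at 3 h the bent and unbent ratios did not overlap, and for CIPK18 they did. In a two-sided exact permutation test each of these 3 separations had p = 0.1, the smallest that 3 against 3 libraries allow, and an adjusted p of 0.267 over the 24 ratio tests made.

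**Figure D3:**
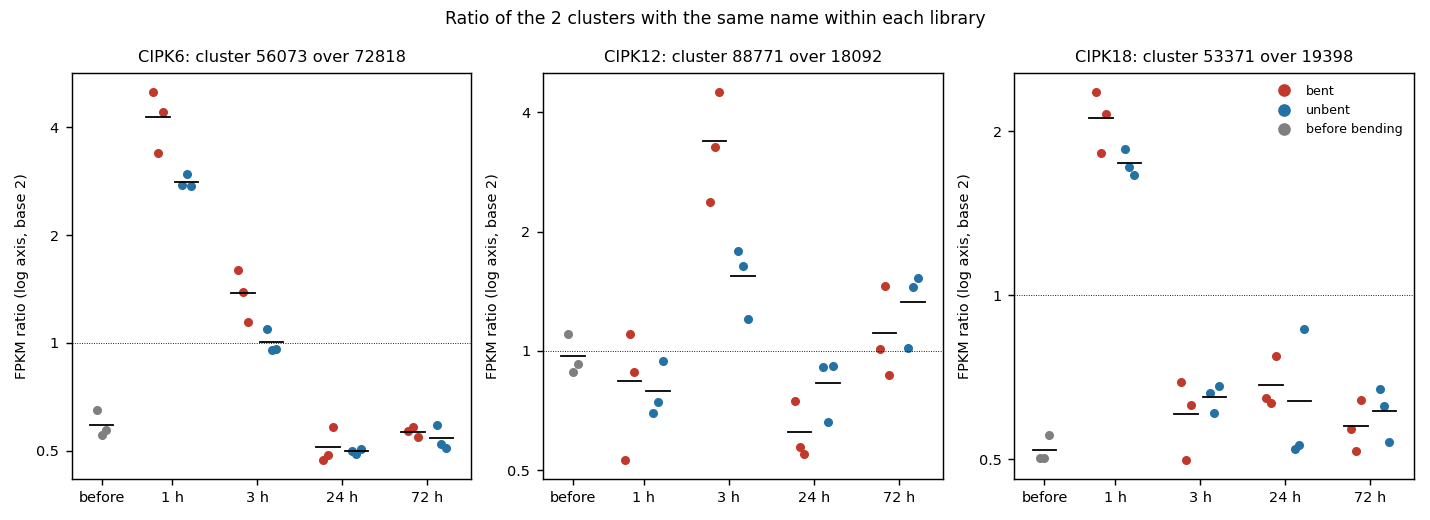
FPKM ratio of the 2 clusters with the same name in each of the 27 libraries (points, with the group mean as a line) on a log axis of base 2, before bending (grey) and in bent (red) and unbent (blue) stems; the dotted line marks equal FPKM. The CIPK6 and CIPK18 ratios are above 1 in all 6 libraries at 1 h, and the CIPK12 ratio is highest in the 3 bent libraries at 3 h.

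The rest of the pathway was described from lists of gene names. Of 22 clusters named for other CIPKs, 21 were tested. At 1 h none of these passed in edgeR, DESeq2 or limma-voom, and 3 had an unadjusted p under 0.05. At 3 h, 4 passed higher and 1 passed lower, where 5.08% of all tested clusters passed (3.05% higher), with a median log2 fold change of -0.01 over the 21. CIPK9 Cluster-9242.44108 averaged 49.2 ± 6.46 CPM in bent stems and 30.4 ± 4.95 CPM in unbent stems (log2 fold change 0.70 ± 0.10, adjusted p = 4.08e-06). CIPK9 Cluster-9242.44107 rose by 0.80 ± 0.20 (adjusted p = 0.0205), CIPK23 Cluster-9242.48875 by 0.57 ± 0.10 (adjusted p = 0.000107) and CIPK10 Cluster-9242.57737 by 0.50 ± 0.12 (adjusted p = 0.00676). In Arabidopsis, CIPK23 activates the potassium channel AKT1 and CIPK9 acts in potassium homeostasis.

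Each of these 4 clusters held only 1 of the kinase and NAF domains. Among the 18 clusters with both domains, 2 passed at 1 h, which were CIPK6-56073 and CIPK7-39790, and 2 passed at 3 h. The 2 at 3 h were CIPK12-88771 and CIPK21 Cluster-9242.30642, which was lower with a log2 fold change of -0.58 ± 0.18 (adjusted p = 0.0451). Over all tested clusters, 1.93% passed at 1 h and 5.08% at 3 h. Of the 18, 7 are the members, whose names were proposed with earlier results known. Of the other 11, none passed at 1 h and only CIPK21 passed at 3 h.

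All 13 clusters named for CBL calcium sensors were tested, and none passed at 1 or 3 h in edgeR, DESeq2 or limma-voom. At an unadjusted p under 0.05 there were 0 at 1 h and 4 at 3 h. The CBL1 Cluster-9242.77701 had the smallest p of the list at 3 h (-2.15 ± 0.78, adjusted p = 0.110), and CBL4 Cluster-9242.11804 had -0.46 ± 0.18 (adjusted p = 0.151). CBL2 Cluster-9242.45221 had -0.42 ± 0.18 (adjusted p = 0.223) and CBL10 Cluster-9242.76283 had -0.23 ± 0.10 (adjusted p = 0.246). In unbent stems against those before bending, 2 of 13 CBL clusters passed at 1 h and 2 at 3 h, where 10.3% and 14.1% of all tested clusters passed. The other CIPKs had 7 of 21 pass at 1 h, 5 higher and 2 lower, and 6 of 21 at 3 h, 1 higher and 5 lower. Over all tested clusters, 6.46% passed higher and 3.85% lower at 1 h, and 5.88% passed lower at 3 h.

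Among known partners and substrates, 15 of 23 clusters were tested, and 1 of the 15, of the anion channel SLAH3, passed under bending at 1 h and at 3 h. The share of all tested clusters that passed in edgeR was 1.93% at 1 h and 5.08% at 3 h. In DESeq2 1 of the 15 passed at each of these times, and in limma-voom 2 passed at 1 h and 1 at 3 h. An unadjusted p under 0.05 was found for 6 of the 15 at 1 h and 4 at 3 h. SLAH3 Cluster-9242.39233 averaged 191 ± 4.24 CPM in bent stems and 111 ± 2.17 CPM in unbent stems at 1 h (log2 fold change 0.79 ± 0.08, adjusted p = 7.44e-09), and it was higher at 3 h by 0.76 ± 0.09. In unbent stems at 1 h it was already higher than before bending, by 3.19 ± 0.09. AKT2 Cluster-9242.65094, the channel that Arabidopsis CIPK6 acts on, averaged 71.6 ± 3.24 CPM in bent stems and 85.9 ± 4.14 CPM in unbent stems at 1 h (-0.26 ± 0.08, adjusted p = 0.0736). The respiratory burst oxidase RBOHC had a log2 fold change of 0.32 ± 0.10 at 1 h (adjusted p = 0.134), and the vacuolar sodium and proton exchanger NHX1 had -0.40 ± 0.14 at 3 h (adjusted p = 0.0933). Of 17 tested clusters of the related SnRK1 and SnRK2 kinases, 0 passed at 1 h in edgeR, DESeq2 or limma-voom (1 at an unadjusted p under 0.05). At 3 h, 4 passed in edgeR, 3 in DESeq2 and 5 in limma-voom, where 5.08% of all tested clusters passed in edgeR (3.05% higher). The 4 were all higher: SRK2A by 0.41 ± 0.11, SAPK7 by 0.43 ± 0.13, SAPK2 by 0.66 ± 0.18 and SAPK3 by 0.48 ± 0.15, kinases of the SnRK2 branch that acts in abscisic acid and osmotic stress signalling.

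**Figure D4:**
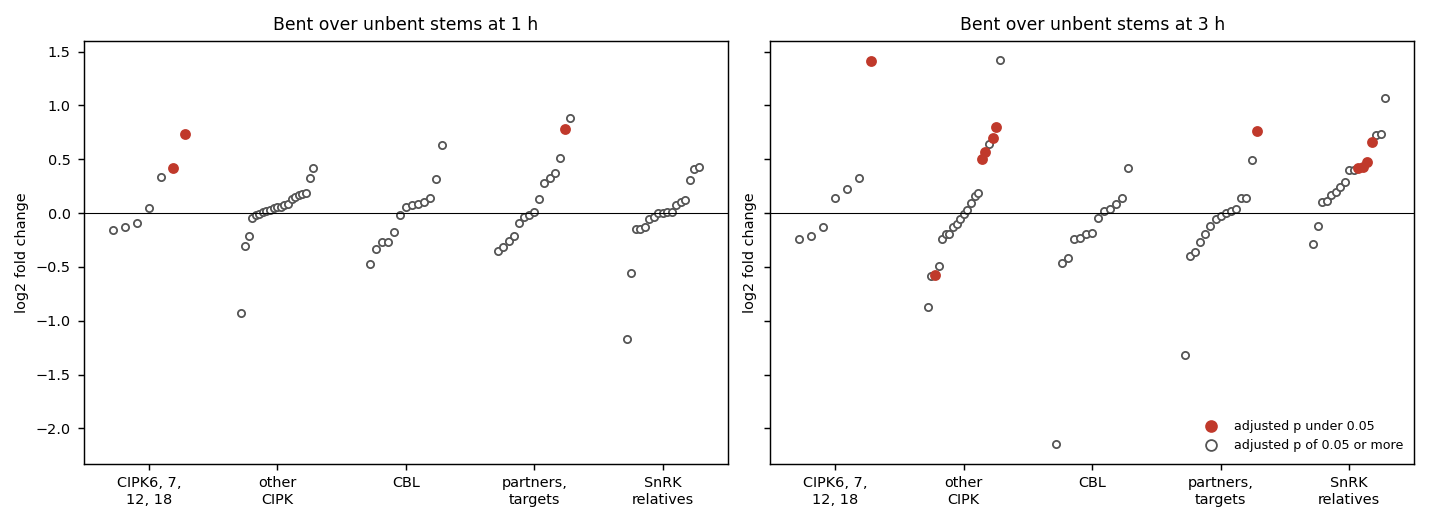
Log2 fold change of bent over unbent stems at 1 h (left) and 3 h (right) for the 7 members, 21 other CIPK clusters, 13 CBL clusters, 15 partners and substrates and 17 SnRK relatives, 1 point per cluster ordered by value within its list; red points passed an adjusted p of 0.05. At 1 h the red points are CIPK6-56073, CIPK7-39790 and SLAH3, and at 3 h CIPK12-88771 is the highest red point.

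The clusters whose log2 CPM followed each member most closely over the 27 libraries were taken from 12559 clusters with a gene name and at least 10 CPM in a group mean. Pearson's r is a description here, because all values share their libraries and groups. For CIPK6-56073 the closest were PIRL4 (r = 0.98), PATROL1 (0.98), ITPK5 (0.98) and the calmodulin-binding protein CBP60A (0.98). For CIPK18-53371 they were CAX5, a vacuolar cation exchanger (0.98), CBP60A (0.97), MED26B (0.97) and PATROL1 (0.97). CBP60A and PATROL1 stood in both sets by Pearson's r, but with Spearman's rho 0 of these 4 clusters were among the closest 4 of CIPK18-53371, and 1 of 4 stayed for CIPK6-56073. For CIPK7-39790 they were the phospholipase PLDBETA1 (0.94), the fatty acid desaturase FAD7 (0.94), the receptor-like kinase TMK4 (0.93) and PHI-1 (0.93). For CIPK6-72818 they were SCPL18 (0.96), a cluster matching the frog ubiquitin ligase znrf3 (0.95), the light-harvesting protein LHCB3 (0.95) and the homeobox protein HAT5 (0.95). For CIPK12-88771 they were a cluster matching a bacterial beta-glucosidase (0.90), XA21 (0.89), RZPF34 (0.88) and MCCA (0.87). For CIPK12-18092 and CIPK18-19398, whose groups differed least, the highest r was 0.72 with FRS3 and 0.83 with CSP41A.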

How the data were processed

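Per the labels' protocols, poly(A) RNA of 27 whole-stem samples was sequenced on an Illumina NovaSeq as paired reads of 150 bases. The authors deposited expected counts, for which the submitters' processing notes name RSEM 1.2.28. No source used here names the assembly tool. The deposited annotation table holds FPKM values of the same 142016 clusters with Swiss-Prot and Pfam matches, whose deposited match scores were not used in any result. No genome was used. Of the expected counts, 8.05% were not whole, and all were rounded.

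Counts were analysed in R 4.3.3 with edgeR 4.0.16 (filterByExpr, TMM, robust quasi-likelihood fit of 9 group means to all 27 libraries). The code was checked on counts simulated with the same dispersion for every cluster. That check does not cover differences in dispersion between clusters or outlying libraries. The fit to the 27 libraries had 30.4 prior degrees of freedom (median) and a biological coefficient of variation of 0.158. The SE of a log2 fold change in edgeR was derived from its test, as the absolute log2 fold change divided by the square root of the F statistic. Adjusted p-values are Benjamini-Hochberg values over the 52918 clusters tested, with a threshold of 0.05. DESeq2 1.42.0, limma 3.58.1 (voom, and log2(FPKM + 0.1) or log2(FPKM + 1)), relative log expression scaling, other filters, only the groups compared, a replicate block, each library left out, and Spearman correlation were alternatives. Ratios and exact tests used SciPy 1.17.1. The series design calls the samples biological replicates, and bending was done on 1 day, so p-values measure the spread between these samples. The members and gene lists were chosen with earlier results of these data known, and the named genes were the members, up to 4 of each list by smallest p at 1 or 3 h, and the 4 most alike each member. CIPK21, which passed at 3 h, was named after its values were seen.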

Additional observations from a re-analysis of the deposited data

Results flagged for a closer look

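The bending effect differed between the 4 times for CIPK12-88771 (adjusted p = 3.05e-05) and CIPK7-39790 (adjusted p = 0.0125) in the test of that difference. CIPK12-88771 had log2 fold changes of bent over unbent stems of -0.09 ± 0.21 at 1 h, 1.41 ± 0.18 at 3 h, -0.40 ± 0.20 at 24 h and -0.18 ± 0.19 at 72 h. CIPK7-39790 had 0.74 ± 0.14 at 1 h, 0.14 ± 0.16 at 3 h, -0.30 ± 0.15 at 24 h and 0.00 ± 0.15 at 72 h. Groups of 3 libraries were not tested for outlying samples.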

How the results depend on the processing

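No result for a member changed direction while passing, and over all member results and alternatives 1427 kept their side of the threshold, 16 passed newly and 20 no longer passed. At 1 h the count of members passing under bending was 1 on log2(FPKM + 0.1), on log2(FPKM + 1) and with a minimum fold of 1.5, and 2 to 3 with single libraries left out. At 3 h it was 1 throughout the left-out libraries, and at 24 and 72 h it was 0. Over the 4 times the count was 1 on both FPKM scales and 2 to 3 with libraries left out. For 3 h minus 1 h it was 2 with no filter, where CIPK18-53371 also passed (-0.58, adjusted p = 0.0206), and 1 to 2 with libraries left out. In unbent stems against those before bending, with libraries left out, it was 3 at 1 h, 2 to 4 at 3 h, 0 at 24 h, 1 to 2 at 72 h and 4 to 6 over the 5 times. It was 2 at 3 h with a minimum fold of 1.5, 1 at 24 h with no filter (CIPK7-39790) and 2 at 72 h without the 3 libraries richest in ribosomal RNA. The cause of these changes was not tested.

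With the replicate number as a block, the count for 3 h minus 1 h was 2 (CIPK18-53371, -0.58, adjusted p = 0.0301), and no other count of members changed. The labels do not say that a number pairs samples. Deviations from the group means had correlations of -0.117 to 0.178 (median -0.00444) between same-numbered libraries of different groups, with 8 of 108 over 0.1. Between libraries of other numbers and groups these were -0.210 to 0.204 (median -0.000208), with 12 of 216 over 0.1. The 3 libraries richest in ribosomal RNA were all replicate 2.

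Over all clusters, the number passing under bending at 1 h was 1021, and it was 382 without replicate 1 of the bent stems, 514 without replicate 1 and 547 without replicate 2 of the unbent stems. At 3 h it was 2689, and 1318 without replicate 1 of the bent stems and 1283 without replicate 3 of the unbent stems. At 24 h it was 13, and 41 without replicate 1, 8 without replicate 2 and 5 without replicate 3 of the bent stems, and 2 without replicate 1 and 5 without replicate 3 of the unbent stems. It was 132 with no filter, 88 with only the groups compared, 42 in DESeq2, 21 with the replicate block, 8 with a stricter filter and 0 on both FPKM scales. At 72 h it was 0, and 6 without replicate 1 of the unbent stems, 47 with no filter, 14 with only the groups compared, 4 in DESeq2 and 1 on log2(FPKM + 0.1). For 3 h minus 1 h it was 445, and at 1 h 275 without replicate 1 of the bent stems and 281 without replicate 3 of the unbent stems, at 3 h 289 without replicate 2 and 227 without replicate 3 of the unbent stems. It was 272 without the 3 libraries richest in ribosomal RNA, 761 with no filter and 225 on log2(FPKM + 0.1). Over the 4 times it was 1116, and 663 without replicate 3 of the unbent stems at 3 h, 2012 with no filter, 485 on log2(FPKM + 0.1) and 633 on log2(FPKM + 1). Against stems before bending, it was 4446 in unbent stems at 24 h and 2765 without their replicate 3, and 5475 at 72 h and 3415 without their replicate 1. With Spearman's rho in place of Pearson's r, 0 to 2 of the 4 closest clusters of a member stayed the same, and the member with 0 was CIPK18-53371. The CIPK12 clusters, at about 4 FPKM, are the least precise, with an SE of up to 0.21 under bending.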
